A study of Mus musculus with 20 samples.

Results

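Genes of the cell division cycle were followed in gastrocnemius, a calf muscle, of mice given JA16, an antibody that binds myostatin, or saline. The set holds 32 genes chosen by name: 3 G1 cyclins, 10 genes of DNA replication and nucleotide supply, 4 genes of S phase and mitotic entry (cyclins A2, B1 and B2 and the kinase Cdk1), 13 genes of the mitotic spindle, kinetochore and mitotic exit, and the proliferation markers Mki67 and Top2a. Of these, 31 had a probe set annotated to a single gene, out of 18193 genes measured in this way. Ccnb1 (cyclin B1) had none and enters only the promoter search below. Where a gene had several probe sets, the one of highest mean log2 intensity over the 20 samples stood for it.

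The study compared 10 samples from JA16-treated mice with 10 from saline-treated mice, on Affymetrix mouse arrays. Per the labels, JA16 went into the peritoneum on day 1 at 0.12 mg per g body weight and on day 3 at 0.09 mg per g, the saline mice were the injected controls, and all mice were killed on day 5. Strain, genotype, age and sex are not stated in the labels, which also do not say that each sample is a mouse of its own; if some are not, the p-values measure in part technical spread. The samples carry replicate numbers 1 to 10 in both groups, and same-numbered samples were compared as pairs. Skeletal muscle fibre genes were at high levels in every sample. The summed intensity of 8 such genes, among them the myosin light chain gene Mylpf and the calcium pump gene Atp2a1, was 147471 to 185688 in saline samples. It was 146984 to 218030 in JA16 samples, and none of the 8 was at 0 throughout.

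A cell that enters division passes in order through G1, S, G2 and M phases. D-type cyclins and cyclin E, with their kinases, start the passage; the Mcm helicase unwinds DNA for replication, and ribonucleotide reductase and thymidylate synthase supply its building blocks. Cyclins A and B with Cdk1 drive mitosis, which Plk1 and the Aurora kinases carry out and the anaphase-promoting complex, with Cdc20 and Ube2c, ends. Nuclei of adult muscle fibres are postmitotic, and division in muscle is known from satellite cells, the stem cells of the fibre, and from immune, endothelial and connective tissue cells between fibres. In whole muscle, fewer dividing cells and less RNA per dividing cell cannot be told apart.

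Transcription of these genes is known to be timed by promoter elements. The E2F factors act on G1 and S phase genes, while the cell cycle genes homology region, written TTTGAA, is bound by the MuvB complex and, with CCAAT boxes bound by NF-Y, is typical of G2 and M phase genes. Promoter windows from 250 bases before to 50 after the start were matched by symbol for 26 of the 32 genes (RefSeq, GRCm38.p6); Ccnd1, Ccnd2, Ccna2, Mcm4, Aurkb and Tpx2 were unmatched. TTTGAA was searched on both strands, as were CCAAT and, for E2F, the letters TTTCCCGC, TTTCGCGC, TTTGCCGC and TTTGGCGC, with overlapping matches counted. TTTGAA was found for 12 of 16 mitotic genes (75%), 1 of 9 replication genes (11.1%) and 20.2% of all 27025 genes with a window. The E2F letters were found for 4 of 9 replication genes (44.4%), 1 of 16 mitotic genes (6.25%) and 2.6% of all genes, and CCAAT for 14 of 16, 8 of 9 and 41.1%. All 12 mitotic genes with TTTGAA also held CCAAT, a combination found in 8.97% of all genes. The 16 mitotic genes include Ccnb1, which has no measured level here and held CCAAT without TTTGAA. A match is a description of the letters and not a shown binding site.

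The 160 bases before the start are printed for 4 mitotic genes that hold TTTGAA and stood far apart in a saline sample described below. For contrast in the letters, 2 replication genes that carry E2F letters are printed too. Matches to any of the searched letters, on either strand, are in capitals. Cdk1 lies at chr10:69352913-69353072 on the minus strand, Mki67 at chr7:135716380-135716539 (minus), Top2a at chr11:99024190-99024349 (minus), Ube2c at chr2:164769769-164769928 (plus), Mcm6 at chr1:128359706-128359865 (minus) and Mcm5 at chr8:75109349-75109508 (plus).
Cdk1: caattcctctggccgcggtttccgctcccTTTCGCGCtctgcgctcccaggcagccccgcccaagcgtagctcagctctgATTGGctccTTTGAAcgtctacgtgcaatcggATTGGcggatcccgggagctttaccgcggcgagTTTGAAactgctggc
Mki67: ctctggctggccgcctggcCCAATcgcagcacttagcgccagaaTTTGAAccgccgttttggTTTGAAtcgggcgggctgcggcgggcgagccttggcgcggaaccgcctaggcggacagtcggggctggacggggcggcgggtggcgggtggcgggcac
Top2a: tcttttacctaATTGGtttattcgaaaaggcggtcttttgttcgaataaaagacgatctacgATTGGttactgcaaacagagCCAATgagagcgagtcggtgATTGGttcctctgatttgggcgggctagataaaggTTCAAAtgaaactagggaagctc
Ube2c: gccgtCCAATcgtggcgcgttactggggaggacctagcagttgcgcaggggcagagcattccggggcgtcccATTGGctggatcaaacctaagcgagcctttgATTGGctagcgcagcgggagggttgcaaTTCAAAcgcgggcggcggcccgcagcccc
Mcm6: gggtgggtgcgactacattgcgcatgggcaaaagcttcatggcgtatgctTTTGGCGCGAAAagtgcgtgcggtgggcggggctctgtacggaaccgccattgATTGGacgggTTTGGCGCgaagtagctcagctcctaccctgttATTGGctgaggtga
Mcm5: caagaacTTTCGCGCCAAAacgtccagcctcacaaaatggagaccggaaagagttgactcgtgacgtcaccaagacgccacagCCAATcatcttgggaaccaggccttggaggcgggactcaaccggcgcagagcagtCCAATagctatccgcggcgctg
In these stretches Cdk1 and Mki67 each held 2 copies of TTTGAA, and Top2a and Ube2c 1 each, read on the other strand as TTCAAA. Cdk1 also held 1 E2F match. Mcm6 held 3 E2F matches and Mcm5 held 2, and neither held TTTGAA. The letters did not follow the level in that saline sample gene by gene. Birc5, Nusap1 and Bub1 stood far apart there too, and their windows held no TTTGAA. Aurka held TTTGAA and did not stand apart, and Mcm6 and Mcm5 were also highest there. A link between letters and level was not tested.

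Values are MAS5 intensities on a linear scale, with the same trimmed mean on every array; differences are log2 of JA16 over saline with the standard error (SE) of limma's fit, in which the replicate number is a block. Array medians ran from 38.9 to 77.1. The highest, 77.1, was that of saline replicate 7, and the other 9 saline arrays had medians of at most 63.1. The arrays form 2 sets by the beta-actin control, whose 3' probes over its 5' probes gave log2 ratios of 1.33 to 1.84 for numbers 1 to 6 but 0.48 to 0.64 for numbers 7 to 10. The Gapdh control did not separate these sets, with log2 ratios of 0.21 to 0.41 for numbers 1 to 6 and 0.18 to 0.32 for numbers 7 to 10. Because of the beta-actin ratio, results are also given within each set.

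Saline replicate 7 stood apart in these genes. It held the highest of the 10 saline values for 25 of 31 members, against 20% of all genes, and was at least 2 times the median of the other 9 saline samples for 22 members (17.4% of all genes) and at least 4 times for 14 (4.86%). With quantile normalization, which gives all arrays one distribution, the counts were 24 members highest (13.1% of all genes) and 20 at 2 times or more (11.6%). Of the 25 members, 16 were mitotic: 16 of the 18 measured mitotic members were highest in that sample, with a median of 8.65 times the other 9, while the 10 replication genes had a median of 2.17 times and all genes 1.06 times.

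**Figure D1:**
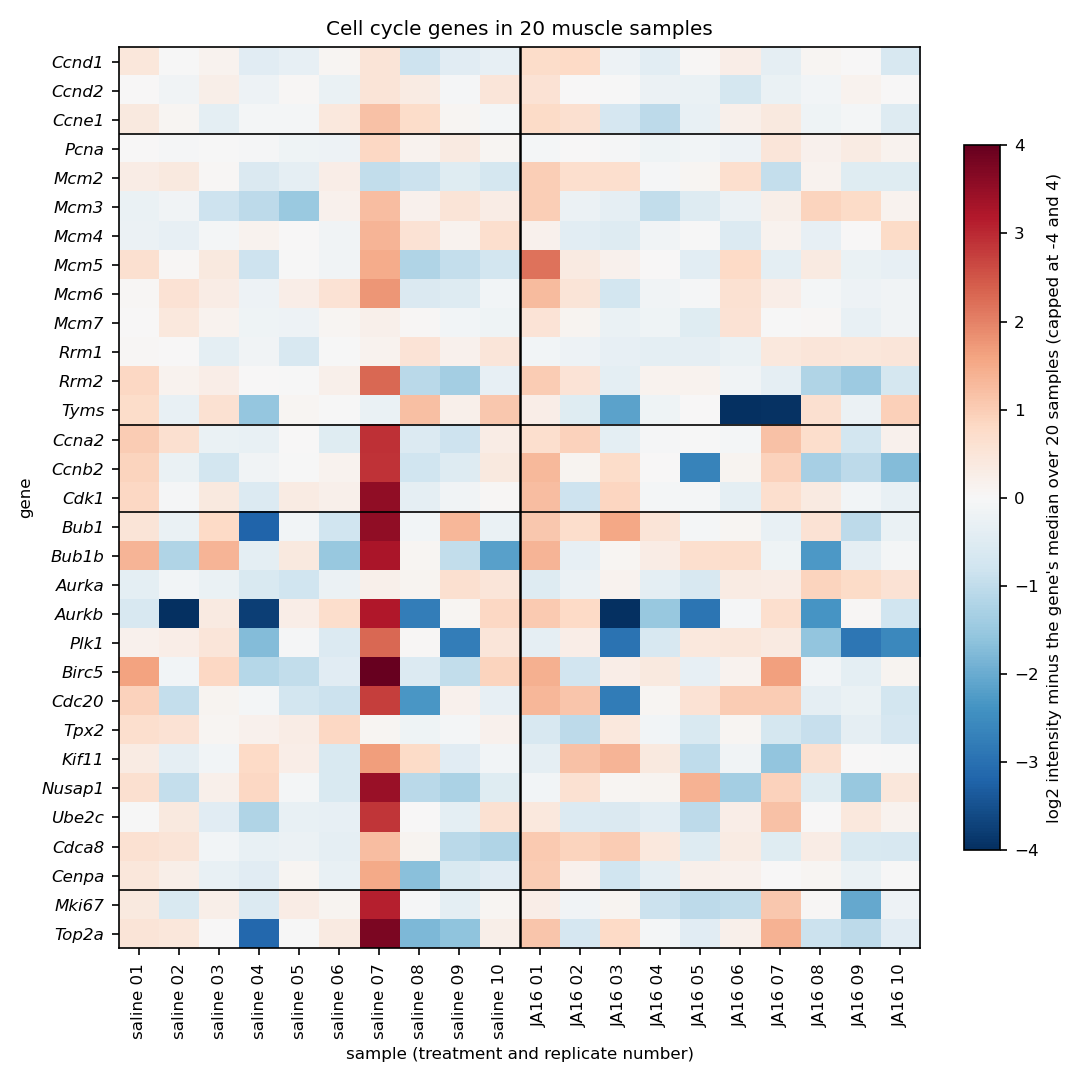
Log2 intensity of the 31 measured genes (rows, grouped by role, with lines between groups) in the 20 samples (columns), each row minus its own median over the 20 samples, with colours capped at -4 and 4. Saline 07 is the only column in which most mitotic genes are dark red; it held the highest saline value for 25 of 31 genes.

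Mki67, a coat protein of mitotic chromosomes used as the standard mark of dividing cells, had an intensity of 494 in saline replicate 7 and 37.3 to 74.2 in the other 9 saline samples. JA16 samples ran from 13.7 to 121, with a median of 50.9. Top2a, the topoisomerase that untangles replicated DNA, was at 562 in saline replicate 7 and at 4.6 to 58.7 in the other 9. This holds for the probe set chosen for Top2a and not for another of near-equal mean, given below. Its JA16 values were 19.8 to 108, with a median of 34.3. For both genes the groups overlapped, and the highest JA16 sample was JA16 replicate 7, the partner of that saline sample by number.

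Cdk1, the kinase that triggers mitosis, had a saline median of 58.6, with 624 in replicate 7 and at most 96.1 elsewhere. In JA16 samples it ran from 30.3 to 127 with a median of 50.4. Ccna2 (cyclin A2) was at 302 in saline replicate 7 and at 22.3 to 80.5 in the others, and Ccnb2 (cyclin B2) at 227 and 17.6 to 57.3. JA16 values were 23.6 to 89.6 for Ccna2 and 4.8 to 75.3 for Ccnb2. Saline replicate 7 lay above every JA16 sample for all 3 genes, and the ranges of the other 9 saline samples overlapped those of the JA16 samples.

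Among genes of the spindle and of mitotic exit, Birc5 (survivin, a subunit of the chromosomal passenger complex) had the widest gap, at 1045 in saline replicate 7 against 20.6 to 141 in the other 9, a value 31.7 times their median. Nusap1, which bundles spindle microtubules, was at 276 against 10.5 to 44.7. Ube2c, the ubiquitin-conjugating enzyme of the anaphase-promoting complex, was at 564 against 33.6 to 118, and Cdc20, an activator of that complex, at 216 against 6.3 to 59.6. The checkpoint kinase genes Bub1 and Bub1b were at 118 against 1.1 to 25.2 and at 164 against 3.8 to 44.1. The passenger kinase gene Aurkb was at 113 against 0.5 to 21.8, and Plk1, the kinase of centrosome maturation, at 115 against 3.4 to 32.5. Kif11 (a spindle motor), Cdca8 (borealin, of the passenger complex) and Cenpa (the histone of centromeres) were at 3.48, 2.80 and 3.56 times the median of the other 9. Many of these genes are dim: 11 of the 31 members had a mean log2 intensity over the 20 samples under that of the median probe set, which corresponds to 50.1. These means include saline replicate 7, so genes high there can miss the count. Birc5 was not among the 11, though its median was 33 in the other 9 saline samples and 49.3 in JA16 samples.

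Further probe sets of the same genes gave the same picture in several cases. A second Ccna2 probe set was at 570 in saline replicate 7 and at 13.8 to 126 in the other 9, a second Bub1b probe set at 144 against 3.0 to 45.3, and a second Kif11 probe set at 164 against 8.4 to 23.7. Of the replication genes described next, Rrm2 had a second probe set at 257 against 31.4 to 55.2 and Mcm4 one at 588 against 125 to 274.

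A pair of mitotic genes did not share this. Aurka, the kinase of spindle poles, was at 805 in saline replicate 7, within the range of 401 to 1080 of the others. Tpx2, which activates Aurka and nucleates spindle microtubules, was at 414, within 342 to 695. A second, dimmer Tpx2 probe set was at 248 in that sample against 68.7 to 164 in the other 9, so the probe sets of this gene differ there. For some other mitotic genes a further probe set lacked the high value. Nusap1 had such a probe set at 16.7, within 16.1 to 40.0, and Top2a at 63.2, within 24.5 to 66.6. The mean log2 intensity over the 20 samples was 5.274 for this Top2a probe set and 5.288 for the chosen one. Saline replicate 7 entered these means at 63.2 and 562, so the choice turned on that sample. Top2a is in the counts for that sample through the chosen probe set only. Cenpa had dim ones at 8.4, under the 9.1 to 36.1 of the other 9, and at 24.4, within 0.4 to 30.1.

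Replication genes were high in the same sample for 6 of 10 members. Rrm2, the subunit of ribonucleotide reductase made in S phase, was at 1987 against 158 to 709 in the other saline samples. Mcm6, Mcm5, Mcm3 and Mcm4, subunits of the replicative helicase, were at 3.25, 3.06, 2.61 and 2.53 times the median of the other 9. Pcna, the sliding clamp of DNA polymerases, was at 2725 against 1334 to 1972. Rrm1, the subunit that pairs with Rrm2, and Mcm7 were at 772 and 650, within the ranges of 451 to 1019 and 491 to 759. Tyms, thymidylate synthase, was at 14.3, within 5.9 to 39.1. Mcm2 differed from all of these: saline replicate 7 was its lowest saline sample, at 269 against 291 to 695, and a second probe set was at 194, within 55.5 to 274. The G1 cyclins Ccnd1, Ccnd2 and Ccne1 were highest in saline replicate 7 too, at 1542 against 614 to 1482, 847 against 490 to 823 and 152 against 52.0 to 113. Their probe sets differed in this: the other 6 of Ccnd2 were highest in saline replicate 8 or 9, one of them at 463 in replicate 7 with 588 as the highest, and the other of Ccne1 was highest in replicate 1, at 73.6 against 50.1 in replicate 7.

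Other cell cycle genes, from 4 further lists, were also high in that sample. Of 48 further mitosis genes, 41 had their highest saline value in replicate 7, with a median of 5.44 times the other 9. The count was 20 of 32 for further replication genes (1.49 times), 9 of 21 for G1 and E2F genes (1.35 times) and 6 of 19 for inhibitors of the cycle (1.32 times), against 20% of all genes.

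Markers of other cells were high there as well, with 7 of 11 myogenic, 11 of 14 leukocyte, 10 of 11 fibroblast and 0 of 8 endothelial markers at their highest saline value. The 11 genes of satellite cells and of embryonic or denervated muscle summed to 15106 in saline replicate 7 and to 3363 to 5753 in the other 9. Of these, Myog, the factor of myoblast differentiation, was at 2132 against 152 to 532, Ncam1, an adhesion protein of immature fibres, at 2904 against 428 to 918, and Chrna1, an acetylcholine receptor subunit, at 2575 against 407 to 1662. Myod1, a myogenic factor, was at 1535, within 802 to 2295. The 14 measured leukocyte markers summed to 41978 against 9998 to 23404, with the macrophage lysozyme gene Lyz2 at 13131 against 2501 to 5568, whereas Csf1r, the macrophage growth factor receptor gene and the brightest of the list, was at 4962, within 1768 to 7717. The 11 fibroblast markers summed to 72705 against 26411 to 41520, with Col3a1 at 14373 against 4738 to 9888. Endothelial markers summed to 6546, within 5872 to 8650, the 4 measured erythroid markers to 313, within 168 to 517, and muscle fibre genes to 148214, within 147471 to 185688. No marker in these lists was at 0 in all samples. The part of these cells in the cell cycle values was not tested.

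**Figure D2:**
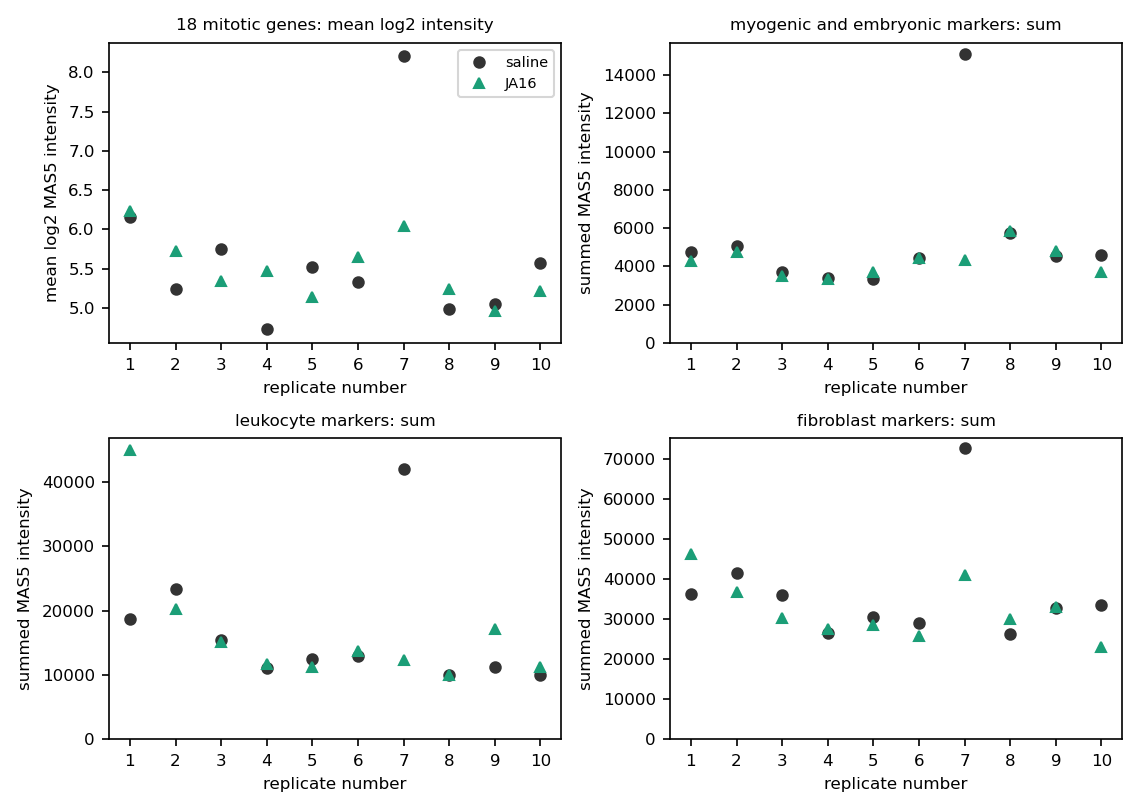
Mean log2 intensity of the 18 measured mitotic genes (top left) and summed MAS5 intensity of the markers of satellite cells and embryonic muscle, leukocytes and fibroblasts, by replicate number, with saline as circles and JA16 as triangles. Saline replicate 7 is highest among saline samples in all 4 panels, at 8.21 for the mitotic mean against at most 6.15, while JA16 replicate 1 is highest for leukocyte markers at 45020.

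The JA16 group held no sample of this kind. The mean log2 intensity of the 18 mitotic genes ran from 4.73 to 6.15 in 9 saline samples, with 8.21 in replicate 7, and from 4.96 to 6.23 in JA16 samples. JA16 replicate 1, at 6.23, held the highest JA16 value for 14 of 31 members (15.6% of all genes), among them 5 replication genes, 5 mitosis genes and 2 G1 cyclins. Mcm5 was at 328 there, beside a JA16 median of 77.8. Leukocyte markers summed to 45020 in that sample and to 9902 to 20213 in the other JA16 samples, while its myogenic and embryonic markers, at 4272, lay within 3343 to 5833. JA16 replicate 7, at 6.05, held the highest JA16 value for 6 members (10.4% of all genes): Ccna2, Birc5, Ube2c, Mki67, Top2a and Pcna. Its Birc5 value was 143 and its Ube2c value 175, each at least 2 times the median of the other 9 JA16 samples, as was true of 6 members and 11.8% of all genes.

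Some members also differed in level between the array sets, apart from replicate 7. Aurka had saline values of 401 to 643 for numbers 1 to 6 and 763 to 1080 for numbers 8 to 10. Rrm1 was at 451 to 731 and then 792 to 1019, and Pcna at 1334 to 1553 and then 1598 to 1972. Rrm2 went the other way, at 397 to 709 and then 158 to 324. In JA16 samples these 4 genes differed between the sets in the same directions. Cenpa had saline values of 78.8 to 149 and then 33.5 to 78.0, and Mcm5 40.6 to 112 and then 31.1 to 43.0. Cenpa did not separate the sets in JA16 samples, at 61.4 to 217.5 for numbers 1 to 6 and 89.1 to 114.7 for numbers 8 to 10. The share of all genes that differ between the sets was not counted, so these genes are a description only. The set boundary is that of the beta-actin ratio, and its part in these levels was not tested.

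The comparison of JA16 with saline asks whether block of myostatin, a secreted inhibitor of muscle growth, goes with a difference in cell cycle transcripts on day 5. No member passed an adjusted p of 0.05 in limma: 0 of 31, against 0.170% of all genes (31 of 18193). At an unadjusted p under 0.05 there were 5 of 31 members, against 11.9% of all genes; Mcm2 and Aurka had differences above 0, and Tpx2, Mki67 and Tyms below 0. Without the block 0 of 31 members passed (0.0220% of all genes, 4 of 18193), and 1, Tpx2, had an unadjusted p under 0.05 (3.26% of all genes). The difference was above 0 for 11 of 31 members, against 46.9% of all genes, with or without the block. Differences of the 31 members ran from -1.21 to 0.42, with SEs from 0.061 to 0.79, and the median was -0.059 beside -0.017 over all genes. In the 10 pairs the saline and JA16 groups of every member overlapped, as did those of all 18193 genes.

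That median turned on saline replicate 7. Leaving out this sample drops pair 7 from the paired fit, and the median of the members was then 0.078 over 9 pairs, beside -0.0038 over all genes, with 17 of 31 members above 0 (49.4% of all genes) in place of 11. For the 18 mitotic members the median was -0.092 with all pairs and 0.18 without pair 7, and 12 were above 0 in place of 6. No member passed the adjusted threshold without pair 7 either (0 of 31, against 0.0715% of all genes), and 5 had an unadjusted p under 0.05 (10.9% of all genes). Within the first array set the members' median was 0.073, and within the second, which holds pair 7, it was -0.37, and 0.12 in the latter without pair 7.

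**Figure D3:**
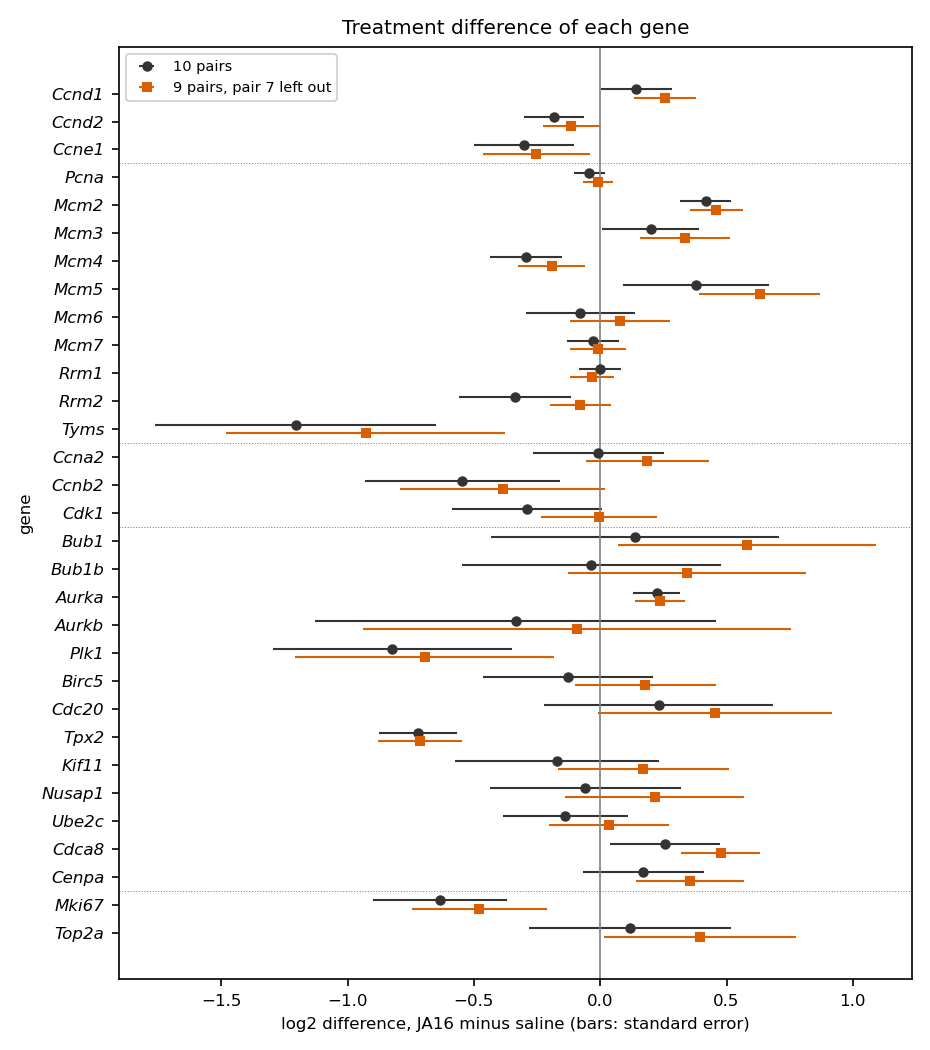
Log2 difference (JA16 minus saline) of each measured gene with its standard error from the paired limma fit, for all 10 pairs (circles) and with pair 7 left out (squares); dotted lines separate the roles. Most mitotic genes lie to the right when pair 7 is left out, while Mcm2 (0.42 and 0.46) and Tpx2 (-0.72 and -0.71) hardly move.

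Tpx2 had the smallest p of the members. Its saline intensities ran from 342 to 695 with a median of 436, and its JA16 intensities from 190 to 518 with a median of 249. JA16 was lower in 9 of 10 pairs, and the exception was pair 3, whose JA16 sample was the highest of its group. The log2 difference was -0.72 (SE 0.15, limma adjusted p = 0.0863), and -0.71 (SE 0.17, adjusted p = 0.165) without pair 7. Without pair 3 it was -0.84 and passed (adjusted p = 0.0291), and with 1 pair left out the adjusted p ran from 0.0291 to 0.222. All 4 Tpx2 probe sets had a difference below 0, but those with saline means of 11.6 and 6.9 were near the bottom of the scale. Within the array sets it was -0.76 (SE 0.22) for the first and -0.67 (SE 0.19) for the second. Without the block the adjusted p was 0.813.

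Mcm2 had the next smallest p. Its saline values were 269 to 695 with a median of 397, and its JA16 values 276 to 1043 with a median of 577. JA16 was higher in 9 of 10 pairs, though the groups overlapped. The array sets differed in level, as saline values were 359 to 695 for numbers 1 to 6 but 291 to 381 for numbers 8 to 10. The difference was 0.42 (SE 0.10, limma adjusted p = 0.155), with both probe sets above 0, and it was 0.49 (SE 0.10) within the first array set and 0.31 (SE 0.22) within the second. Of the other helicase subunits, Mcm5 was at 0.38 (SE 0.29), Mcm3 at 0.20 (SE 0.19) and Mcm4 at -0.29 (SE 0.14), the last lower in 8 of 10 pairs (adjusted p = 0.436). Without pair 7 these became 0.63, 0.34 and -0.19. The replication genes Mcm6, Mcm7, Rrm1 and Pcna had differences of -0.079 to 0.0008.

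Aurka had a difference of 0.22 (SE 0.093, limma adjusted p = 0.368), from a saline mean of 684 ± 220 (SD, n = 10) to a JA16 mean of 812 ± 300, and was higher in 8 of 10 pairs. Its other probe set was near the bottom of the scale, at a saline mean of 8.9, and had the opposite sign; a mean over both gave -0.37. Mki67 had a difference of -0.63 (SE 0.27, adjusted p = 0.371), lower in 8 of 10 pairs, and -0.48 (SE 0.27, adjusted p = 0.538) without pair 7. Tyms had -1.21 (SE 0.56, adjusted p = 0.411) at intensities of 0.5 to 39.1, and 1 of its 4 probe sets had this sign; it was -0.77 without pair 6 and -0.35 on the log2(intensity + 16) scale. Plk1, at 3.0 to 31.5 in JA16 samples, had -0.82 (SE 0.47, adjusted p = 0.51), and -0.53 without pair 3 and -0.40 on the log2(intensity + 16) scale.

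**Figure D4:**
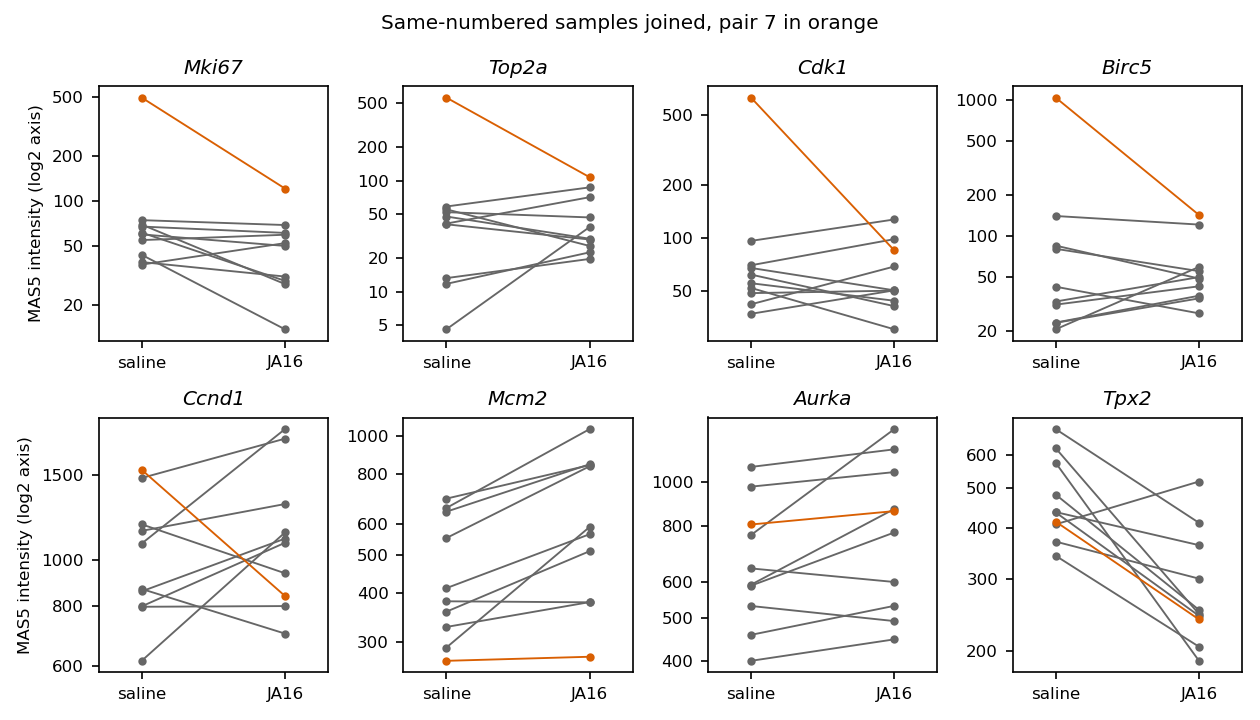
MAS5 intensity of 8 of the genes on a log2 axis, with same-numbered saline and JA16 samples joined by a line and pair 7 in orange. Mki67, Top2a, Cdk1 and Birc5 have their highest value in the saline sample of pair 7 (494, 562, 624 and 1045), whereas Mcm2 is higher and Tpx2 lower in JA16 in 9 of 10 pairs. Top2a is drawn by its chosen probe set, a choice that turned on that saline sample.

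The G1 cyclins, which act at entry into the cycle, differed in level: Ccnd1 and Ccnd2 were bright, and Ccne1 ran from 32.9 to 152. Ccnd1 (cyclin D1) had saline values of 614 to 1542 with a median of 974 and JA16 values of 700 to 1876 with a median of 1095, a difference of 0.14 (SE 0.14, limma adjusted p = 0.731). Without pair 7 it was 0.26 (SE 0.12, adjusted p = 0.463). Ccnd2 (cyclin D2), with a saline median of 601 and a JA16 median of 569, was at -0.18 (SE 0.12) and had 6 of 7 probe sets on that side. Ccne1 (cyclin E1) was at -0.30 (SE 0.20), and its other probe set had the opposite sign. Rrm2 was at -0.34 (SE 0.22) with all pairs and at -0.078 (SE 0.12) without pair 7, and Cdk1 at -0.29 (SE 0.30) and -0.0032 (SE 0.23). Top2a was at 0.12 (SE 0.40) and 0.40 (SE 0.38), Cdca8 at 0.26 (SE 0.22) and 0.48 (SE 0.16), and Ccnb2 at -0.55 (SE 0.39) and -0.39 (SE 0.41). Ccnb2 was at -0.31 without pair 5. The SEs of the 11 members counted as dim over the 20 samples ran from 0.26 to 0.79, which limits what could be detected for them.

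Markers of other cells were compared in the same way, and none of the 6 lists held a marker that passed in limma. At an unadjusted p under 0.05, 3 of 11 fibroblast, 2 of 11 myogenic and embryonic and 2 of 8 endothelial markers were lower in JA16, beside 11.9% of all genes with such a p in either direction, and 0 of 14 leukocyte, 0 of 8 muscle fibre and 0 of 4 erythroid markers had such a p. Their median differences were -0.22, -0.11 and -0.19 for the first 3 lists and 0.032 for leukocytes, and became -0.18, -0.044, -0.21 and 0.19 without pair 7. Without pair 7 the counts at an unadjusted p under 0.05 were 3 fibroblast, 1 myogenic, 3 endothelial and 3 leukocyte markers (10.9% of all genes). Leukocyte markers were then above 0 for 14 of 14 (49.4% of all genes), in place of 8 of 14 (46.9%). By array set, 14 of 14 were above 0 in replicates 1 to 6 (median 0.24) and 7 of 14 in replicates 8 to 10 (median 0.030). Over all 18193 genes these counts were 9263 and 8567. Leaving out pair 7 drops the highest saline leukocyte sum, 41978, but keeps the highest JA16 sum, 45020 in replicate 1. Ncam1 was at -0.63 (SE 0.19, adjusted p = 0.251) and -0.42 (SE 0.12) without pair 7. Their part in the differences of the cell cycle genes was not tested.

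Of the other cell cycle genes, 120 of 124 listed were measured and 0 passed over all genes in limma, with 13 of 120 at an unadjusted p under 0.05 (3 higher and 10 lower), beside 11.9% of all genes. Their median difference was -0.062, and 0.021 without pair 7. Among the inhibitors of the cycle, Gadd45a, a stress-induced gene, was at 0.45 (SE 0.099, limma adjusted p = 0.105) and higher in all 10 pairs, and Gadd45g at 0.34 (SE 0.094, adjusted p = 0.215). Ccng2 (cyclin G2), a FoxO target that holds cells out of the cycle, was at -0.33 (SE 0.077, adjusted p = 0.129) and lower in all 10 pairs. Mean intensities of Ccng2 were 1028 ± 114 for saline and 820 ± 119 for JA16 (SD, n = 10 each). Among replication genes, Tk1 (thymidine kinase) was at -0.41 (SE 0.14, adjusted p = 0.274) and Gmnn (geminin, an inhibitor of re-replication) at -0.24 (SE 0.090), each lower in 9 of 10 pairs, and Pole, a DNA polymerase subunit, at -0.68 (SE 0.20). The spindle motor gene Kif22 was at -0.48 (SE 0.16), or -0.17 without cross-matching probe sets, Anln (anillin) at -0.52 (SE 0.29) and the kinetochore gene Nuf2 at -0.997 (SE 0.60), or -0.60 without pair 10 and -0.37 on the log2(intensity + 16) scale. Of the regulators, Mybl2, an activator of mitotic genes, was at 1.29 (SE 0.48) with saline intensities of 0.8 to 17.2; it was 0.39 on the log2(intensity + 16) scale and 0.41 as the mean of both probe sets, of which the other had the opposite sign. Skp2 was at -0.85 (SE 0.38), and at -0.49 without pair 3, -0.48 on the log2(intensity + 16) scale and -0.33 as the mean of its probe sets, and the MuvB subunit gene Lin9 at -0.22 (SE 0.12).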

How the data were processed

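The RNA was amplified and labelled with NuGEN kits, per the labels' protocols. The deposited values are linear MAS5 intensities, a name taken from the submitters' processing notes; the scaling target is not given there, and the 2% trimmed mean was 500.0 on every array. The platform annotation gave 1 gene for 34945 of 45101 probe sets, several for 932 and none for 9160, beside 64 controls, and 34741 matched a RefSeq table (GRCm38.p6) by gene identifier. Before log2 was taken, 5 deposited intensities at or below 0 were raised to 0.1. No filter was set on dim probe sets among the 18193 genes tested. In the mean over the 20 samples, saline replicate 7 included, 20 of 31 members reached the median level.

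JA16 and saline were compared in limma 3.58.1 (R 4.3.3; eBayes with an intensity trend, two-sided, Benjamini-Hochberg over all genes, threshold 0.05). The replicate number was a block, because the comparison was set beforehand to pair same-numbered samples. The labels do not say what a number marks. Residuals about the group means correlated within pairs at 0.38 to 0.79 over the brighter genes (10 of 10 pairs above 0.1) and at 0.071 to 0.27 over all genes (8 of 10). By array number the saline array comes first in each pair, so array order and treatment cannot be told apart within pairs. Members and lists were chosen with earlier results of these data known. Any member could be named; of each further cell cycle list the 3 genes of smallest p were named, and from each marker list its brightest genes. On simulated data for this comparison (18193 genes), 30% of 100 genes changed by 0.5 (log2) and 48% of 100 changed by 1 were recovered. The number of arrays limits the precision. Tables were made with pandas 2.3.3 and figures with matplotlib 3.10.9.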

Additional observations from a re-analysis of the deposited data

Results flagged for a closer look

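Within each group of 10 samples, the gap of the most extreme sample to its neighbour was set against the group's log2 range. A share above Dixon's 95% critical value was listed. Chance gives about 1 in 20 groups where groups are independent, but these share the same arrays. Saline replicate 7 was singled out beforehand, so the counts are a description and not a test of chance. Of 74 groups (31 genes and 6 marker sums in 2 treatments), 15 passed, and 11 of them were highest in saline replicate 7. For genes these were Mki67 (share 0.734, intensity 494), Cdk1 (0.663, 624), Nusap1 (0.557, 276), Ube2c (0.554, 564), Ccnb2 (0.538, 227), Birc5 (0.511, 1045), Ccna2 (0.507, 302), Mcm6 (0.503, 408) and Top2a (0.47, 562). The Top2a entry rests on its chosen probe set, a choice that turned on the same sample. For marker sums they were those of myogenic and embryonic genes (0.643, 15106) and of fibroblasts (0.553, 72705). JA16 replicate 1 was highest for Mcm5 (0.536, 328) and for the leukocyte sum (0.529, 45020). Single low values came from dim probe sets, Bub1b in JA16 replicate 8 (0.531, 3.5) and Cdc20 in JA16 replicate 3 (0.496, 4.6).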

How the results depend on the processing

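The count of members past the threshold was 0 under 23 of 24 alternatives and 0 to 1 with 1 pair left out, the 1 being Tpx2 without pair 3. The count over all genes was 31 and moved to 4 without the replicate block (also without the block and saline replicate 7), 10 with centred medians, 9 with the mean of all probe sets, 2 in replicates 1 to 6, 0 in replicates 7 to 10 (1111 genes at an unadjusted p under 0.05), 0 without an intensity trend (1764), and 9 to 35 with 1 pair left out, where leaving out pair 3, 4, 5, 6, 7, 8 or 9 gave 17, 10, 12, 9, 13, 14 and 13. Alternatives chosen after seeing the data gave 17 (quantile normalization without saline replicate 7) and 0 (replicates 8 to 10, with 770 genes at an unadjusted p under 0.05). The pairing changed no call of a member. The members' median ran from -0.15 to 0.078 with 1 pair left out. For 30 genes followed, 692 of 709 values kept their sign and side of the threshold. Signs turned for Pcna at 0.0398 and Cdk1 at 0.055 without the block and saline replicate 7, at 0.0064 and 0.039 with quantile normalization and saline replicate 7 left out together, and at 0.027 and 0.14 in replicates 8 to 10; for Pcna at 0.027 with centred medians; for Top2a at -0.065 with log2(intensity + 16), -0.16 without cross-matching probe sets and -0.38 in replicates 7 to 10 (-0.21 to 0.40 with 1 pair left out); for Mcm3 at -0.046 and Cdca8 at -0.13 in replicates 7 to 10; for Aurka at -0.37 and Anln at 0.092 with the mean of all probe sets; and for Ccne1 at 0.19 without cross-matching probe sets. The cause was not tested. Dim probe sets limit most mitotic genes.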
